A study of Mus musculus with 12 samples.

Results

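The transforming growth factor beta (TGF-beta) pathway was examined here through 9 genes: the ligands Tgfb1, Tgfb2 and Tgfb3, the receptors Tgfbr1 and Tgfbr2, and the Smads Smad2, Smad3, Smad4 and Smad7. They were chosen by name for their place in the pathway and looked up by symbol among the 55573 genes of the count table. All 9 were found, and all 9 were among the 14008 genes with enough counts to be tested. Polyadenylated RNA of whole right hippocampi, taken from C57BL/6J mice aged 4.5 months, was sequenced to ask how the hippocampal transcriptome of an Alzheimer's disease model differs from WT in each sex. The groups were 4 APPSwe/Ps1dE9 females, 4 APPSwe/Ps1dE9 males, 2 WT females and 2 WT males, 12 libraries in all, and the transgenic animals are called APP/PS1. They carry 2 transgenes, for APP and PS1, and a prion promoter element is stated to drive both. Disease alleles are thus expressed from a promoter other than their own. Each WT group had 2 animals, and the titles number the samples without saying more about how they were raised. Total counts on genes were between 36714316 and 50643565 per library.

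TGF-beta ligands are secreted in a latent complex and must be released before they bind. The active ligand binds the type II receptor Tgfbr2, which recruits and phosphorylates the type I receptor Tgfbr1. Tgfbr1 then phosphorylates Smad2 and Smad3, which enter the nucleus with Smad4, while Smad7 is an inhibitory Smad that is induced by the pathway and limits it. In the brain, Tgfb1 signalling is known for keeping microglia in their homeostatic state, and Tgfb2 and Tgfb3 are made by neurons and astrocytes.

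Levels of 2 genes were read beside the genotype labels. Thy1, a neuronal surface glycoprotein known from earlier results of these data to differ between the genotypes, was between 2173 and 3311 normalized CPM (counts relative to the scaled library size) in the 8 APP/PS1 libraries and between 726 and 747 in the 4 WT libraries. Its log2 fold change was 1.80 (SE 0.09), with the smallest p of all genes in edgeR's quasi-likelihood test and a Benjamini-Hochberg adjusted p of 5.93e-06. Prnp, the gene whose promoter element is stated to drive the transgenes, had a mean normalized CPM of 767 ± 28.2 (SD, n = 8) in APP/PS1 and of 787 ± 32.0 (SD, n = 4) in WT, with an adjusted p of 0.814 in edgeR's quasi-likelihood test. The groups did not overlap in Thy1, which is a description and no independent check of the labels because the gene was picked for that difference. They overlapped in Prnp, which gives no check of them either. Brain cell type markers were present in both genotypes, and the hippocampal origin itself was not tested. The 6 neuronal markers, led by Snap25, had a summed normalized CPM of 5848 ± 267 (SD, n = 8) for APP/PS1 and 5822 ± 204 (SD, n = 4) for WT. The 6 oligodendrocyte markers, led by Mbp, summed to 4857 ± 662 and 4821 ± 574 in the same order.

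3 libraries held transcripts of the choroid plexus, a vascular tissue covered by epithelium that projects into the ventricles, near the hippocampus. The 7 choroid plexus markers, led by Ttr, reached a summed normalized CPM of 3824 for APP/PS1 female 1, of 6864 for APP/PS1 male 2 and of 4007 for WT female 2. In the other libraries they summed to between 21.2 and 39.9. These 3 libraries belong to both genotypes, and the fit held 2 factors of unwanted variation (RUV). Results are therefore also given without them.

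Levels of the 9 genes were compared per length, as normalized CPM per kilobase of annotated exon (RPKM), averaged over the 12 libraries. Smad3 was highest at a mean of 14.7 ± 1.01 RPKM (SD), followed by Smad4 at 12.7 RPKM and Tgfb2 at 10.4 RPKM. Tgfbr1 was at 6.60 RPKM, Smad7 at 5.51 RPKM and Smad2 at 4.15 RPKM. Tgfb3 and Tgfbr2 were lower, at 3.25 and 2.96 RPKM, and Tgfb1 was lowest at 1.28 RPKM. Thus the ligand whose level separated the genotypes, described below, was the least abundant of the 9 genes, with 169 to 381 raw counts per library, while Tgfb2 had 1858 to 3209.

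**Figure D1:**
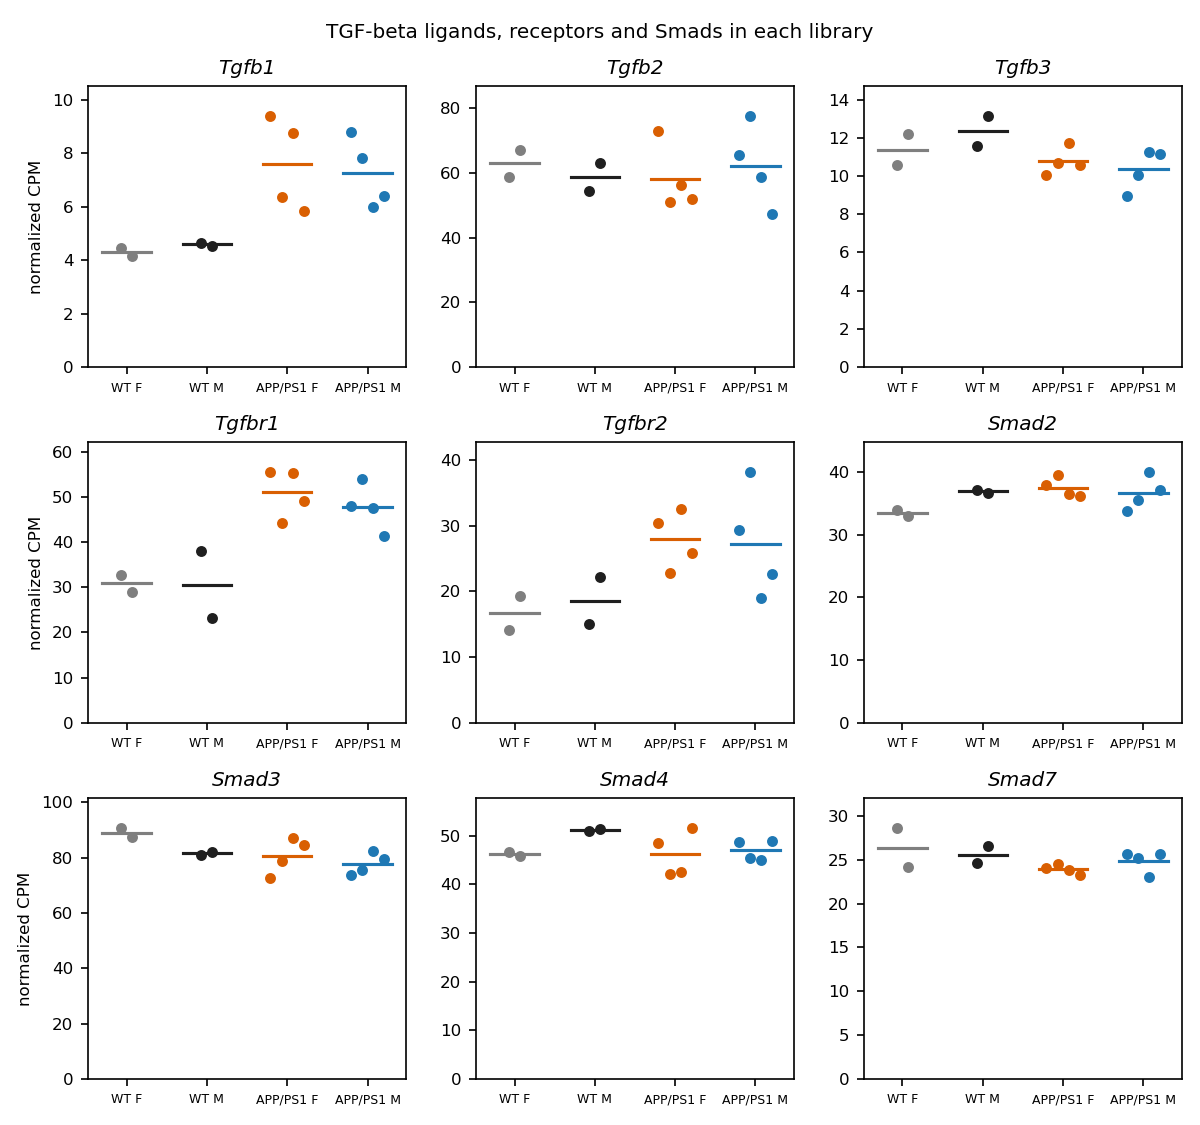
Normalized CPM (vertical axis, from 0) of the 9 TGF-beta pathway genes in each of the 12 libraries, by group on the horizontal axis (F, females; M, males), with a line at each group mean. All 8 APP/PS1 points lie above all 4 WT points for Tgfb1 and Tgfbr1, as for 184 of 14008 genes tested (1.31%), and the groups overlap for Tgfbr2.

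Sequence just before the start of Tgfb1, Tgfbr1 and Tgfbr2, the 3 genes with the largest estimated differences of the 9, is shown so that their regulatory regions can be read beside their levels. The sequences are from RefSeq on GRCm38.p6, each 250 bases on the strand of the gene and ending at the base before the annotated start. Capitals mark matches, on either strand, to a Smad-binding box (GTCTG or CAGAC), a PU.1 box (GAGGAA or TTCCTC), a GC box (GGGCGG or CCGCCC) or an AP-1 site (TGACTCA or TGAGTCA). Over the same window of 32851 promoters these motifs were present in 42.2%, 23.3%, 32.7% and 4.46%, in that order.
Tgfb1, chr7:25686752-25687001, plus strand: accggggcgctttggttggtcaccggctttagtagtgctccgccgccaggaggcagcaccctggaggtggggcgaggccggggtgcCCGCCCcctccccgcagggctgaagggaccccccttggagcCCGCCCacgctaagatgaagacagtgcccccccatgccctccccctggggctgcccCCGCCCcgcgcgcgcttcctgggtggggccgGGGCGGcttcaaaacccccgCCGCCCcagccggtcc
Tgfbr1, chr4:47352972-47353221, plus strand: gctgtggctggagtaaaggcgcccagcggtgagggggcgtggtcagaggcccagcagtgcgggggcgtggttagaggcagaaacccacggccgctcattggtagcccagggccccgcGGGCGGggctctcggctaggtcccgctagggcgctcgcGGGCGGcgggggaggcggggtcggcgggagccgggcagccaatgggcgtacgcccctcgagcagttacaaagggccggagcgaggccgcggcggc
Tgfbr2, chr9:116175364-116175613, minus strand: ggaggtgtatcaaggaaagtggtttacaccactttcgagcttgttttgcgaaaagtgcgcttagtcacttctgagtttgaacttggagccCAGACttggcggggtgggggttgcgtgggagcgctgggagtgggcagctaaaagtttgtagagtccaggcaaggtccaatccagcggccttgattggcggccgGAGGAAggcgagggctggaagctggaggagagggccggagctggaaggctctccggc
The Tgfb1 window held 5 GC boxes and the Tgfbr1 window 2, and neither held a match to the other motifs. The Tgfbr2 window held 1 Smad box and 1 PU.1 box. A second start of Tgfbr1, chr4:47385966-47386215, held 1 Smad box and 1 PU.1 box. GC content was 75.2% for Tgfb1, 74.8% for the first Tgfbr1 window and 58.4% for Tgfbr2, against a median of 52.4% over all windows. A match describes these letters and is no measured binding.

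Of the 3 ligands, Tgfb1 rose in APP/PS1 hippocampus and the other ligands were not called. In APP/PS1 females Tgfb1 was at 9.40, 6.36, 8.77 and 5.85 normalized CPM, and in APP/PS1 males at 8.80, 7.82, 5.99 and 6.39. In WT females it was at 4.47 and 4.17, and in WT males at 4.66 and 4.53. All 8 APP/PS1 libraries were above all 4 WT libraries, and the WT libraries lay close together while the APP/PS1 libraries spread. Such separation was seen for 184 of the 14008 genes tested (1.31%), and the reverse, all 8 below all 4, for 19 genes (0.136%). The log2 fold change averaged over the sexes was 0.73 (SE 0.15, 95% interval 0.41 to 1.05), with a Benjamini-Hochberg adjusted p of 0.0306 in edgeR's quasi-likelihood test, and so Tgfb1 was called at a false discovery rate (FDR) under 0.1. Its call was lost without APP/PS1 male 2, WT female 1, WT female 2 or WT male 2, with adjusted p of 0.101, 0.106, 0.145 and 0.111 in that test, and over all 24 alternatives the adjusted p ran from 0.000359 to 0.274.

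Tgfb2, the most abundant ligand per length, was at 47.3 to 77.6 normalized CPM (median 57.5) in APP/PS1 and at 54.3 to 67.3 (median 61.0) in WT. The groups overlapped, and the log2 fold change was -0.06 (SE 0.08). The 3 highest Tgfb2 values were those of the 3 choroid plexus-rich libraries, 77.6 in APP/PS1 male 2, 73.0 in APP/PS1 female 1 and 67.3 in WT female 2, against 47.3 to 65.7 in the other 9. Without these 3 libraries and without RUV factors the log2 fold change was -0.09. Tgfb3 was at 8.97 to 11.7 normalized CPM (median 10.6) in APP/PS1 and at 10.6 to 13.1 (median 11.9) in WT, also overlapping, with a log2 fold change of -0.15 (SE 0.09). Adjusted p in edgeR's quasi-likelihood test was 0.893 for Tgfb2 and 0.611 for Tgfb3. Tgfb2 shares its locus with 2 antisense genes and Tgfb3 with 3, and because the strand option of the counting is not given in the sources used here, their counts are less certain than those of Tgfb1, which overlaps no annotated gene.

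Of the receptors, Tgfbr1 rose in APP/PS1, and Tgfbr2 was higher in most APP/PS1 libraries without passing the threshold. Tgfbr1, the type I receptor kinase, was at 55.5, 44.2, 55.2 and 49.0 normalized CPM in APP/PS1 females and at 47.9, 54.0, 47.5 and 41.3 in APP/PS1 males. It was at 32.8 and 29.0 in WT females and at 38.0 and 23.2 in WT males. No APP/PS1 library overlapped a WT library, although the WT males differed from each other by more than the WT females did. The log2 fold change was 0.64 (SE 0.11, 95% interval 0.40 to 0.88), with an adjusted p of 0.0185 in edgeR's quasi-likelihood test. Leaving out any 1 of the 12 animals kept Tgfbr1 under the FDR of 0.1, and over all 24 alternatives its adjusted p ran from 6.43e-08 to 0.237.

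Tgfbr2, the type II receptor that binds the ligand, was at 30.4, 22.7, 32.5 and 25.9 normalized CPM in APP/PS1 females and at 29.4, 38.1, 18.9 and 22.6 in APP/PS1 males. It was at 14.1 and 19.3 in WT females and at 15.0 and 22.1 in WT males. APP/PS1 male 3 lay below WT male 2 and WT female 2, and the other 7 APP/PS1 libraries lay above every WT library. The share of all genes with such a pattern was not counted. The log2 fold change was 0.61 (SE 0.17, 95% interval 0.23 to 0.99), and the adjusted p of 0.192 in edgeR's quasi-likelihood test did not pass the threshold. Without WT male 2 the adjusted p in that test was 0.0411, and edgeR's likelihood ratio test and DESeq2 gave 0.0157 and 0.000747, and with 1 RUV factor the quasi-likelihood test gave 0.0851, so whether Tgfbr2 counts as called depends on the test and on the number of RUV factors. Over all 24 alternatives the adjusted p ran from 0.000747 to 0.712.

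The 4 Smads did not pass the threshold. Smad3, a receptor-activated Smad, was at 72.8 to 87.0 normalized CPM (median 79.1) in APP/PS1 and at 80.9 to 90.7 (median 84.9) in WT. The groups overlapped. The log2 fold change of Smad3 was -0.11 (SE 0.05), with an adjusted p of 0.453 in edgeR's quasi-likelihood test. The other Smads lay closer to 0, with log2 fold changes of 0.09 (SE 0.05) for Smad2, -0.07 (SE 0.06) for Smad4, the shared partner Smad, and -0.08 (SE 0.06) for the inhibitory Smad7. All 3 had overlapping groups. Their 95% intervals were -0.03 to 0.20, -0.20 to 0.06 and -0.21 to 0.05, which bounds any difference in these Smads below that estimated for Tgfb1, Tgfbr1 or Tgfbr2. Smad4 overlaps 1 antisense gene.

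**Figure D2:**
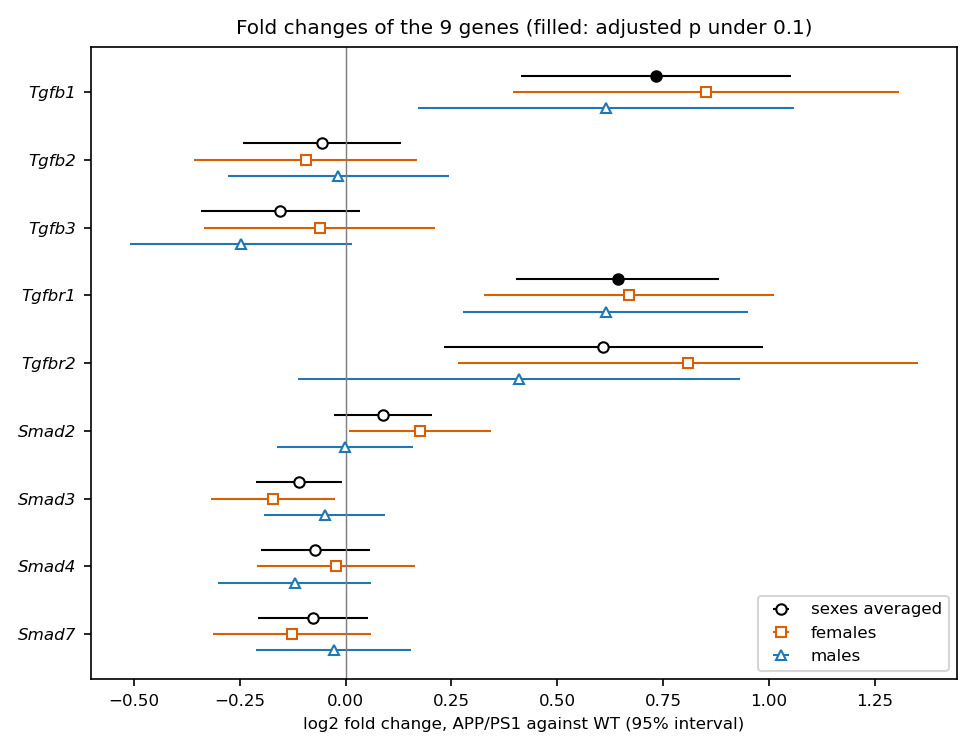
Log2 fold change, APP/PS1 against WT (horizontal axis, with 95% intervals from edgeR's quasi-likelihood fit), for the 9 genes with the sexes averaged, in females and in males. Filled symbols passed an FDR of 0.1, which only Tgfb1 and Tgfbr1 did with the sexes averaged, and the Smads lie near 0.

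Of the whole list, 2 of the 9 genes were called with the sexes averaged, both higher and none lower. Over all genes tested 266 of 14008 were called (1.90%), of which 245 were higher (1.75%) and 21 lower (0.150%). The median log2 fold change of the 9 genes was -0.06, and that of all genes tested was 0.01. An unadjusted p under 0.05 was found for 4 of the 9 genes and for 1341 of all 14008 genes (9.57%).

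In females none of the 9 genes passed the FDR of 0.1 in edgeR's quasi-likelihood test, where 108 of all genes did (0.771%). The 3 genes with the largest estimates there were again Tgfb1, at a log2 fold change of 0.85 (SE 0.21), Tgfbr2 at 0.81 (SE 0.24) and Tgfbr1 at 0.67 (SE 0.15). Adjusted p of these 3 genes was 0.132, 0.301 and 0.130 in edgeR's quasi-likelihood test, and 5 of the 9 genes had an unadjusted p under 0.05, as had 1371 of all 14008 genes (9.79%). edgeR's likelihood ratio test and DESeq2 each called 3 of the 9 in females, and over all genes they called 288 (2.06%) and 296 (2.11%). The quasi-likelihood test called 2 of the 9 without APP/PS1 female 4 (133 of all genes). It called 1 each without APP/PS1 male 1 (156 of all genes), WT male 1 (112) or WT male 2 (118), with no expression filter (205 of 33621) or with a replicate block (79). The 108 genes became 64 without APP/PS1 female 2 and 33 without WT female 1.

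In males none passed either, against 24 genes of all (0.171%), with log2 fold changes of 0.62 (SE 0.21) for Tgfb1, 0.61 (SE 0.15) for Tgfbr1 and 0.41 (SE 0.23) for Tgfbr2. The male estimates of 2 of these genes moved most with the WT males: without WT male 1 they were 0.98 for Tgfbr1 and 0.13 for Tgfbr2, and without WT male 2 they were 0.30 and 0.73. Of the 9 genes 2 had an unadjusted p under 0.05 in males, as had 799 of all 14008 genes (5.70%). The likelihood ratio test and DESeq2 each called 1 of the 9, and over all genes 142 (1.01%) and 146 (1.04%). The quasi-likelihood test also called 1 without APP/PS1 female 4 (29 of all genes) or without WT male 1 (83). The 24 genes became 41 without APP/PS1 female 3, 9 and 43 without APP/PS1 males 2 and 3, each left out alone, 83 without WT male 1 and 4 without WT male 2.

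The interaction, which tests whether the APP/PS1 difference was larger in females than in males, was called for 0 genes of 14008 (0%) with edgeR's quasi-likelihood test, with 565 genes at an unadjusted p under 0.05 and none of the 9 among them. It was 0.24 (SE 0.29) for Tgfb1, 0.06 (SE 0.21) for Tgfbr1 and 0.40 (SE 0.33) for Tgfbr2 on the log2 scale, so a difference between the sexes was not detectable here. Females against males, with genotypes averaged, gave 14 called genes (0.0999%) in edgeR's quasi-likelihood test and none of the 9, with Smad3 the 1 gene at an unadjusted p under 0.05. In that test the 14 genes became 47 without APP/PS1 male 4, 44 without WT female 1, 28 without WT male 1 and 9 without WT male 2, and the 0 of the interaction became 3 without WT female 1 and 4 without WT female 2. The likelihood ratio test and DESeq2 also called none of the 9 in either of these last comparisons, where over all genes they called 12 and 9 for the interaction and 59 and 57 for sex.

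The genes around the core pathway were described from lists of pathway parts, with the sexes averaged unless a sex is named. Among genes for latency and activation, the integrins and binding proteins that hold and release latent ligand, 12 of 15 were tested and 0 were called by edgeR's quasi-likelihood test (median log2 fold change 0.01). 2 of them had an unadjusted p under 0.05, and the likelihood ratio test called 2 and DESeq2 1. Over all genes these 2 tests called 396 (2.83%) and 399 (2.85%). In females they also called 2 and 1 of the 12. Itgb5 had a log2 fold change of 0.43 (SE 0.12) and Itgb3 of 0.63 (SE 0.20). Both are integrin beta chains, with adjusted p of 0.193 and 0.231 in edgeR's quasi-likelihood test, and the groups overlapped in each. Itgb5 was called by that test when APP/PS1 female 2 was left out or when APP/PS1 male 3 was, and Itgb3 without APP/PS1 male 4. The estimate for Itgb3 ran from 0.40 without WT female 2 to 0.87 without WT female 1. Itgb1, a further beta chain, was at 0.09. Among coreceptors and type I relatives all 7 genes were tested and 0 were called, with Acvr1b at -0.10, Tgfbr3 at -0.12 and Eng at 0.08. 1 of the 7 had an unadjusted p under 0.05, and neither the likelihood ratio test nor DESeq2 called any with the sexes averaged. DESeq2 called 1 of the 7 in females. In edgeR's fit Tgfbr3 was at -0.29 (SE 0.08) in females and 0.06 (SE 0.08) in males. Tgfbr3, or betaglycan, presents ligand to Tgfbr2, and Eng is an endothelial coreceptor.

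Smad partners and regulators gave 0 called genes of 18 tested (median log2 fold change -0.00225), and no gene had an unadjusted p under 0.05 in edgeR's quasi-likelihood test. The 3 with the smallest p were Wwp1, a ubiquitin ligase, at 0.12, Skil, a Smad corepressor, at 0.10, and the corepressor Tgif1 at 0.43 (SE 0.22), which was 0.24 without WT male 1 and 0.64 without WT male 2. Target genes of the pathway gave 0 called of 13 tested (median log2 fold change -0.06) and none at an unadjusted p under 0.05. The smallest p belonged to Fn1, fibronectin, at -0.34 (SE 0.15), Cdkn1a, a cell cycle inhibitor, at -0.52 (SE 0.30), and Tsc22d1 at -0.06 (SE 0.04). The likelihood ratio test and DESeq2 also called none in these lists. Without WT male 1, Fn1 was called at -0.57 with an adjusted p of 0.0200 in edgeR's quasi-likelihood test, and without WT male 2 it was at -0.13; over all 24 alternatives its adjusted p ran from 0.0200 to 0.969. Cdkn1a ran from -0.72 without APP/PS1 male 4 to -0.24 without WT female 2. The target list held 1 called gene without WT male 1 and 1 without WT female 2.

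The last list held microglial genes known to depend on TGF-beta signalling. With the sexes averaged, 7 of its 12 genes were called higher and 0 lower, and 11 had a positive log2 fold change, with a median of 0.67 against 0.01 for all genes tested. Over all 14008 genes 245 were called higher (1.75%) and 21 lower (0.150%), and 54.7% had a positive log2 fold change. Within a sex edgeR's quasi-likelihood test called 0 of the 12 in females and 0 in males, with 9 and 8 at an unadjusted p under 0.05. The likelihood ratio test called 6 in females and 5 in males, and DESeq2 7 and 6. Over all genes the likelihood ratio test called 288 in females (2.06%) and 142 in males (1.01%). DESeq2 called 296 (2.11%) and 146 (1.04%) in the same order. The list was written with earlier results of these data known. Gpr34, a microglial G protein-coupled receptor, had a mean normalized CPM of 23.1 ± 4.49 (SD, n = 8) for APP/PS1 and 10.6 ± 3.57 (SD, n = 4) for WT, a log2 fold change of 1.06 (SE 0.19). Sall1, a transcription factor that marks microglial identity, was at 22.3 ± 1.65 and 17.7 ± 0.96 in the same order, a log2 fold change of 0.33 (SE 0.06). Adjusted p in edgeR's quasi-likelihood test was 0.0381 for Gpr34 and 0.0155 for Sall1. Siglech, Olfml3, P2ry13 and P2ry12 were also called, with log2 fold changes of 0.81, 0.84, 0.68 and 0.59. With 1 animal left out Sall1 was called in 12 of 12 fits, but it was not called with a replicate block or without the 3 choroid plexus-rich libraries and RUV factors (adjusted p of 0.112 and 0.257 in edgeR's quasi-likelihood test). With 1 animal left out, Gpr34 was not called without WT female 2, nor Siglech without WT male 2. Olfml3 was not called without APP/PS1 female 2 or any 1 of the 4 WT animals. P2ry13 was not called without either of APP/PS1 females 1 and 2, APP/PS1 male 2, either WT female or WT male 2. P2ry12 was called in 2 of 12 fits, without APP/PS1 female 4 and without WT male 1, and in 11 of all 24 alternatives. All 7 called genes had every APP/PS1 library above every WT library, as had 184 of all 14008 genes tested (1.31%). They were picked by their calls in these same libraries, so the separation adds no support. Mertk, a phagocytic receptor tyrosine kinase chosen for mention after its value was seen, was the 1 gene below 0, at -0.18. With no APP/PS1 female 2, the count of called genes in this list was 4, where 203 of all 13974 genes tested were called (1.45%). It was also lower without WT female 1, WT female 2 or WT male 2, fits where 1 WT group kept 1 animal. The number called over all genes was lower there too.

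**Figure D3:**
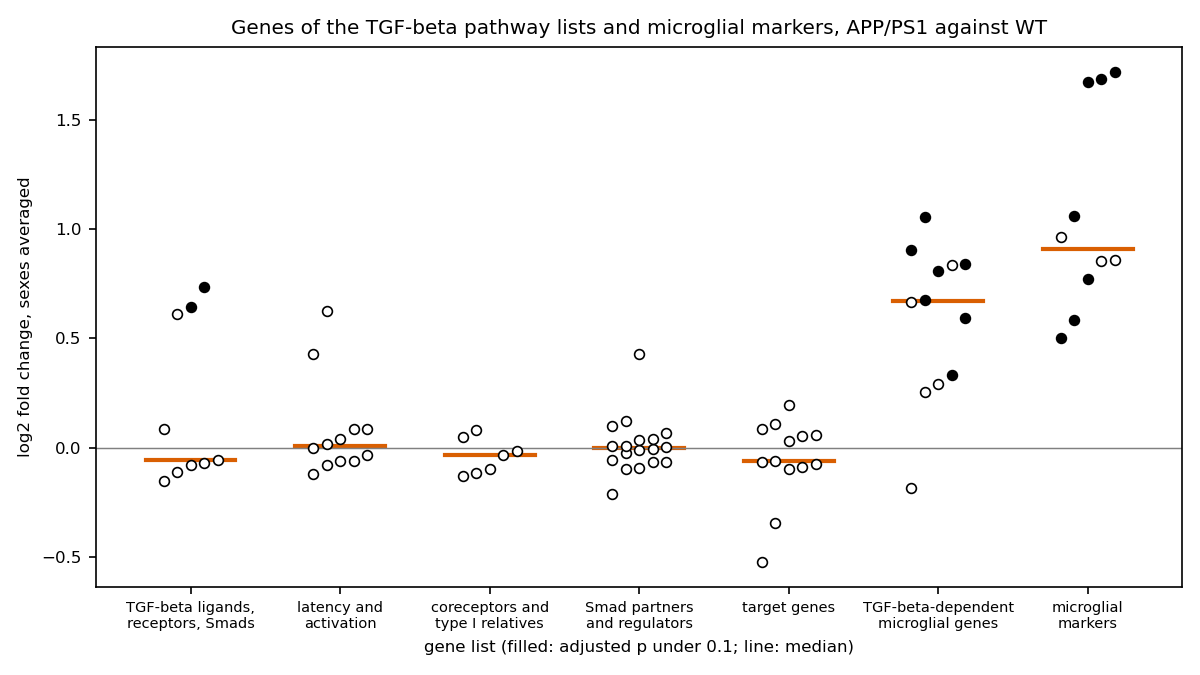
Log2 fold change, APP/PS1 against WT with the sexes averaged (vertical axis), for each tested gene of the TGF-beta gene lists and of the microglial markers (horizontal axis). Filled points passed an FDR of 0.1 and lines are medians, which are near 0 for the ligands, receptors and Smads, latency, coreceptor, Smad partner and target lists and 0.67 for the TGF-beta-dependent microglial genes. The median of the microglial markers is 0.91.

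Microglial markers were also higher in the APP/PS1 libraries than in the WT libraries. The 10 markers, with none at 0, were summed in each library as normalized CPM. The sum ran from 457 to 855 (median 644) in the 8 APP/PS1 libraries, and was 316 and 296 in WT females and 290 and 440 in WT males. All APP/PS1 libraries lay above all WT libraries, and the mean sum was 1.92 times higher in APP/PS1. The most abundant marker was Ctss, at 161 normalized CPM in APP/PS1 and 77.0 in WT. Over all 14008 genes 245 were called higher (1.75%) with the sexes averaged, and of the 10 markers 7 were. The markers had a median log2 fold change of 0.91. In females 3 were called and in males 0, with 10 and 6 at an unadjusted p under 0.05 in edgeR's quasi-likelihood test, while the likelihood ratio test and DESeq2 each called 7 in females and 3 in males. With the sexes averaged the count was 3 without APP/PS1 female 1, where 192 of all 13851 genes tested were called (1.39%). It also fell without any 1 of the 4 WT animals, in fits where 1 WT group kept 1 animal. Over all 24 alternatives the count of called markers ran from 2 to 9. Because the tissue was sequenced whole, a larger number of microglia and more RNA per microglial cell cannot be told apart. What part microglial markers had in the Tgfb1, Tgfbr1 and Tgfbr2 differences, and in the TGF-beta-dependent microglial genes, was not tested.

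**Figure D4:**
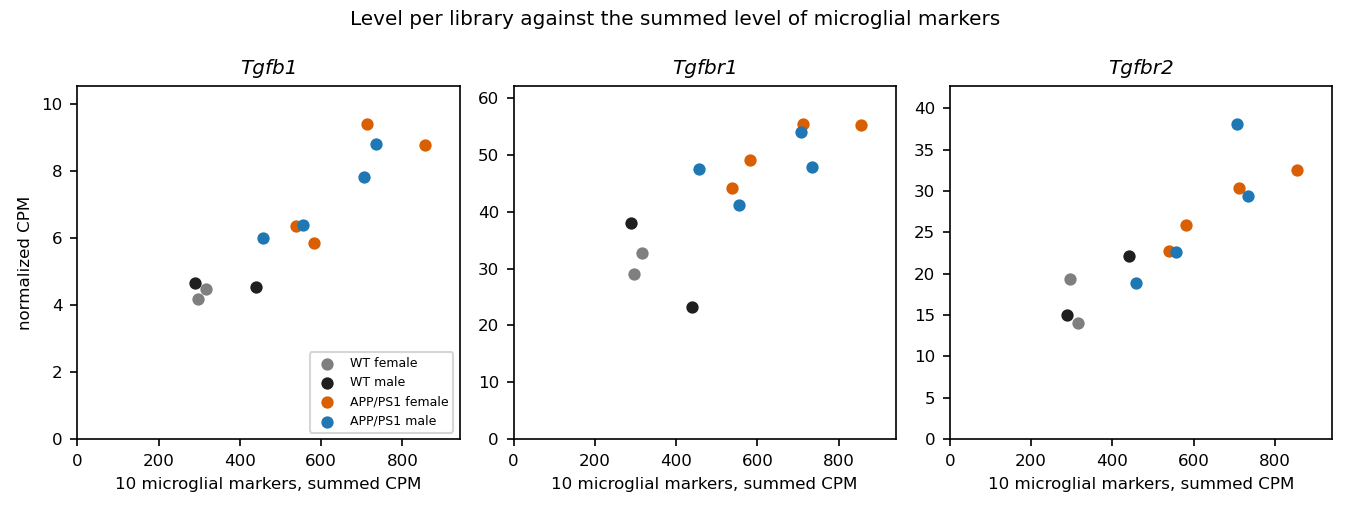
Normalized CPM of Tgfb1, Tgfbr1 and Tgfbr2 (vertical axis) in each of the 12 libraries against the summed normalized CPM of 10 microglial markers (horizontal axis). WT libraries lie between 290 and 440 on the horizontal axis and APP/PS1 libraries between 457 and 855.

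The other cell type lists moved less. Of 6 astrocyte markers 1, Gfap, was called, at a log2 fold change of 1.06 (SE 0.14), with the sexes averaged, where no astrocyte marker was called without WT female 1. It was called in females and not in males by edgeR's quasi-likelihood test, and in both sexes 1 astrocyte marker was called by the likelihood ratio test and by DESeq2. The summed astrocyte markers overlapped at 2767 ± 219 (SD, n = 8) and 2311 ± 72.6 (SD, n = 4) normalized CPM. No neuronal, oligodendrocyte, endothelial, mural, fibroblast, choroid plexus or blood marker was called by edgeR's quasi-likelihood test. DESeq2 called 1 neuronal marker with the sexes averaged, and in females the likelihood ratio test and DESeq2 each called 1 choroid plexus marker. Mean sums in APP/PS1 and WT were 125 and 124 normalized CPM for endothelial, 126 and 116 for mural, 66.5 and 78.3 for fibroblast and 55.2 and 57.9 for blood markers, with overlapping libraries. The most abundant were Flt1, Rgs5, Dcn and Hbb-bs, and Aldoc for astrocytes.

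The genes whose levels followed Tgfb1, Tgfbr1 and Tgfbr2 most closely across the 12 libraries were read by Pearson correlation of log2 normalized CPM, as a description only, since these libraries mix both genotypes. Tgfb1 was closest to Dock8 (r = 0.972), Spi1 (r = 0.957) and Pik3cg (r = 0.952). Tgfbr1 was closest to Gpr34 (r = 0.969), Lag3 (r = 0.954) and Mfsd1 (r = 0.951). Tgfbr2 was closest to Lgmn (r = 0.960), Clic1 (r = 0.958) and Ctsh (r = 0.955). Gpr34 also stands in the list of TGF-beta-dependent microglial genes.

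Without the 3 choroid plexus-rich libraries, and with no RUV factors, the log2 fold changes were 0.63 (SE 0.18) for Tgfb1, 0.59 (SE 0.15) for Tgfbr1 and 0.64 (SE 0.19) for Tgfbr2. Adjusted p was then 0.274, 0.237 and 0.348 in edgeR's quasi-likelihood test, so none of the 9 genes was called, in a fit with 9 libraries that called 66 genes in all. In the same fit 1 of the 12 TGF-beta-dependent microglial genes was called. Without an expression filter, Tgfbr1 had an adjusted p of 0.199 in the same test.

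**Figure D5:**
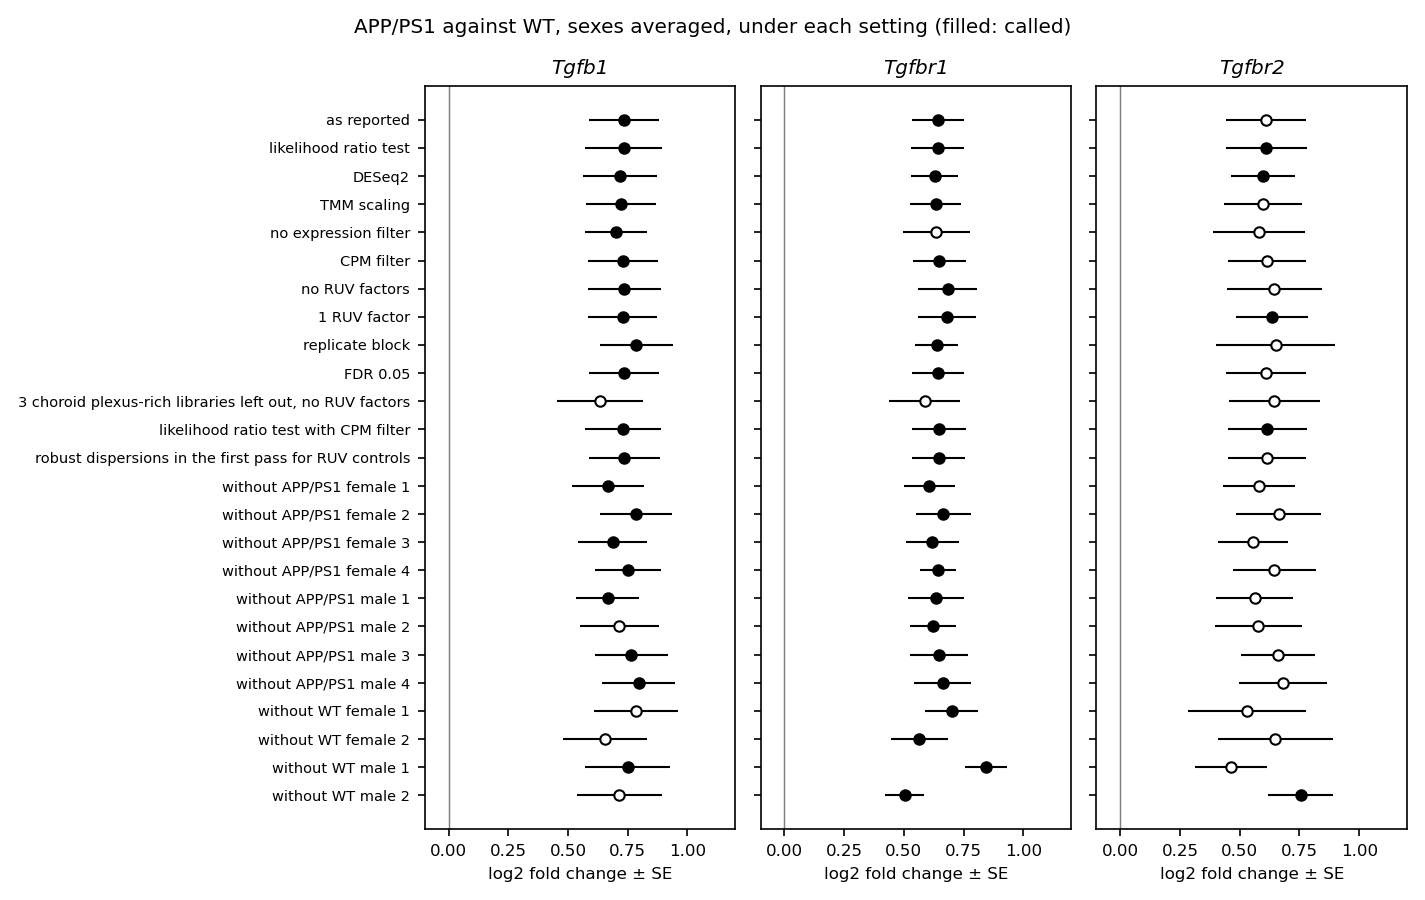
Log2 fold change with its SE (horizontal axis) of Tgfb1, Tgfbr1 and Tgfbr2, APP/PS1 against WT with the sexes averaged, as reported and under 24 alternatives (vertical axis). Filled points were called, and every estimate of the 3 genes was above 0.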

How the data were processed

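The authors used Trimmomatic for trimming, STAR for alignment to GRCm38 and HTSeq for counting, and deposited raw counts per gene; versions and the strand option are not given in the sources used here. Symbols and positions came from GENCODE M21, which matched 55394 of 55573 identifiers. A gene was tested if its log2 CPM reached 1 in 3 or more libraries (14008 genes). Upper-quartile scaling was used. RUVg, re-implemented here, gave 2 factors of unwanted variation, with every gene outside the top 5000 of a first test over the groups as a control. Robust dispersions were first used in that first test; they were dropped after the calls had been seen, because the counts of calls then equalled those of earlier work on these data, and the robust pass is kept as an alternative. The quasi-likelihood test of edgeR (version 4.0.16, under R 4.3.3) fitted 4 groups together, with two-sided contrasts and Benjamini-Hochberg adjustment over all genes tested. The procedure was tested on simulated counts. They held no factor of unwanted variation, and only the contrast with the sexes averaged was read. Removal of such variation and the contrasts within a sex were therefore not tested by them.

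Named were all 9 genes; in each pathway list every gene called in an APP/PS1 against WT contrast and the 3 with the smallest p; the 3 genes most correlated with Tgfb1, Tgfbr1 and Tgfbr2; Thy1 and Prnp; and each marker list's most abundant gene. The result of 1 gene under this rule is not reported here. Members and lists were chosen with earlier results of these data known. Within groups, chi-square per degree of freedom was between 8.72 and 38.2 over 14 pairs, so no library repeated another. P-values set a group difference against the spread between these samples, which was estimated over the 4 groups together and with information shared across genes. Alternatives were the likelihood ratio test, DESeq2 (1.42.0), TMM scaling, other filters, fewer RUV factors, a replicate block, an FDR of 0.05 and left-out libraries.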

Additional observations from a re-analysis of the deposited data

Results flagged for a closer look

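A gap between 1 library and the other 3 of its group, divided by the group's range, was above Dixon's critical ratio for 4 samples in 5 of the 80 groups of 4 looked at, where chance gives about 1 in 20. Summed choroid plexus markers stood apart in APP/PS1 female 1 (ratio 0.998) and in APP/PS1 male 2 (ratio 0.997). Tgfbr3 stood apart in the latter library, at 29.7 normalized CPM against 17.0 to 18.2 in the other APP/PS1 males (ratio 0.903). Thy1 was 3311 normalized CPM in APP/PS1 female 3 against 2477 to 2606 in the other APP/PS1 females (ratio 0.844). Prnp was 822 normalized CPM in APP/PS1 male 1 against 759 to 765 (ratio 0.904).

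The APP/PS1 difference of Tgfbr3 was lower in females than in males by an interaction of -0.35 on the log2 scale (SE 0.11), with an adjusted p of 0.995 in edgeR's quasi-likelihood test; it was the 1 of the 30 genes chosen for naming with an unadjusted interaction p under 0.05. In the same pathway lists Ltbp3, at -0.37 (SE 0.12), and Col1a1, at -1.09 (SE 0.35), also had one; both were outside the naming rule and picked after their values were seen. Over all 14008 genes there were 565. The part of the choroid plexus-rich libraries in it was not tested.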

How the results depend on the processing

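Of 1103 log2 fold changes over 24 alternatives, 992 kept their direction and their side of the threshold. Likelihood ratio test with the CPM filter, and robust dispersions in the first pass, were chosen after seeing the data, as were all alternatives for genes outside the 9. The robust first pass called 270 genes in place of 266 and the same number of the 9 genes in each comparison. Where a WT group kept 1 animal, it was assumed to vary like the other groups. The causes of the changes below were not tested.

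The 266 genes called became 173 with no RUV factors, 66 without the 3 choroid plexus-rich libraries and RUV factors, 446 by the likelihood ratio test with the CPM filter, and 94 to 361 with 1 animal left out (94 without WT female 1, 163 without WT female 2). DESeq2 split its 399 calls (2.85%) into 305 higher and 94 lower, against 245 and 21. With the sexes averaged, the likelihood ratio test called 396 of 14008 genes (2.83%). The quasi-likelihood test called 238 (1.70%) with 1 RUV factor and 320 of 33621 (0.952%) with no expression filter. Of the 9 genes with the sexes averaged, 3 were called by the likelihood ratio test, with either filter, by DESeq2 and with 1 RUV factor, 1 with no expression filter, 0 without the choroid plexus-rich libraries and 1 to 2 with 1 animal left out. In females 3 were called by the likelihood ratio test, with either filter, and by DESeq2, 1 with no filter and 0 to 2 with 1 animal left out. In males 1 was called by the likelihood ratio test, with either filter, and by DESeq2, and 0 to 1 with 1 animal left out. Of the TGF-beta-dependent microglial genes 1 was called with no filter, 1 without the choroid plexus-rich libraries and 2 to 8 with 1 animal left out.

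With the replicate block the counts were 196 genes in all, 2 of the 9 with the sexes averaged, 1 in females, 0 in males and 4 TGF-beta-dependent microglial genes. Deviations of same-numbered libraries from their group means had a correlation over 0.1 in 4 of 14 pairs, with values between -0.673 and 0.732. The highest was between APP/PS1 male 2 and WT female 2, both rich in choroid plexus transcripts. In a WT group of 2 animals the deviations mirror each other. Whether the numbers pair the samples could therefore not be decided. With the replicate block Tgfb2 was at 0.0152 with the sexes averaged and 0.0646 in males, and Smad7 at 0.0275 in males.

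Other estimates that changed sign had not been called. In males Tgfb2 was at 0.0834 with no RUV factors and 0.000558 with 1. Without the choroid plexus-rich libraries Smad2 was at 0.0105 in males and Tgfb3 at 0.0547 in females. With 1 animal left out, log2 fold changes ran from -0.132 to 0.0378 for Tgfb2 with the sexes averaged, -0.144 to 0.119 for Tgfb2 in males, -0.190 to 0.0653 for Tgfb3 in females, -0.0590 to 0.0422 for Smad2 in males, -0.0768 to 0.0312 for Smad4 in females, -0.248 to 0.0199 for Smad7 in females, -0.0717 to 0.0241 for Smad7 in males and -0.0386 to 0.223 for Eng. Tgfb1 has the fewest counts of the 9 genes, so counting error weighs most on it.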
